A study of Mus musculus with 12 samples.

Results

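The KPC ubiquitin ligase (Kip1 ubiquitination-promoting complex) was described here at the level of its transcripts in mouse retina, through 4 genes: Rnf123, which encodes the catalytic RING subunit KPC1, Ubac1, which encodes the adaptor subunit KPC2, and the substrate genes Cdkn1b (p27) and Nfkb1 (p105). These 4 genes were taken from 24570 named genes by their symbols, and all 4 were measured. The set was put together because Rnf123 was lower in diabetic retinas on these same arrays, so the values of Rnf123 are given as a description and without a test. The 3 other genes were included as its known partner and substrates.

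As background, KPC1 carries the RING domain that recruits the ubiquitin-conjugating enzyme, and KPC2 binds ubiquitin chains and the proteasome through its ubiquitin-like and ubiquitin-associated domains. The complex marks p27, an inhibitor of cyclin-dependent kinases, for degradation in the cytoplasm early in the cell cycle, and it promotes the cleavage of p105 by the proteasome into p50, a subunit of the transcription factor NF-kB. In the retina p27 is known for holding progenitors and Mueller glia out of the cell cycle, and NF-kB is best known there for inflammatory responses of glia and vessels. Both actions of the ligase are on proteins, whereas these arrays measured RNA, and the proteins were not measured here.

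The study compared whole retinas of 6 male C57BL6/J mice made diabetic with streptozotocin, a toxin of pancreatic beta cells, with those of 6 normoglycaemic mice of the same strain, 1 array per animal. Per the labels, 160 mg/kg was injected into the peritoneum at 8 weeks of age and a weight of 24 to 26 g, glucose above 15 mM was required after 7 days, and controls received no streptozotocin. Sample descriptions place the retinas 6 weeks after induction, while the design text calls the diabetic animals 6 weeks old, so age was not settled here. The labels call the mice outbred, which is not usual for this strain. The replicates are separate animals per the labels. Their animal numbers are consecutive in controls and all lower in diabetic mice, where diabetic 5 and diabetic 6 stand apart from diabetic 1 to 4, so that a cohort behind these numbers and diabetes cannot be told apart.

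Values were log2 RMA values with an identical distribution on every array (median 5.73, range 5.07 to 14.10), and correlations between arrays were 0.993 or higher. Values near the lower end of this range are close to background and compress differences. The 9 rod markers averaged 12.54 in both groups, near the top of the range, as fits the labelled tissue. Lens markers differed between arrays (array means 5.96 to 6.81 in controls and 5.83 to 7.91 in diabetic retinas, groups overlapping). All 8 had a higher mean in diabetic retinas. Whether lens tissue was carried over was not tested. The 6 measured red blood cell markers lay below the array median. The list means of Mueller glia, endothelium, microglia, pigment epithelium and skeletal muscle also overlapped between the groups. In each list 0 members passed the limma test, where 3.24% of all genes passed. Each list had 0 to 2 members at an unadjusted p under 0.05, against 21% of all genes. With lists of 7 or 8 genes, these counts do not show that the mix of cells was unchanged. In bulk tissue, fewer cells of a type and less RNA per cell cannot be told apart.

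Rnf123, the catalytic subunit gene, was lower in every diabetic retina than in any control retina. Control values ran from 8.96 (control 2) over a median of 9.07 to 9.10 (control 4), and diabetic values from 8.43 (diabetic 3) over a median of 8.61 to 8.80 (diabetic 5). The groups did not overlap, and 0.15 log2 units lay between the lowest control and the highest diabetic array. Of all genes, 2.84% had groups without overlap, 1.62% with the diabetic retinas lower. The mean fell by 0.45 ± 0.06 (SE) on the log2 scale, from 9.04 ± 0.06 to 8.60 ± 0.14 (SD, n = 6 per group), which is 1.36-fold. Of the 24570 genes, 15 had a change at or below that of Rnf123, itself included, and all 15 had a mean at or above the array median. Nothing is read from this place in the order, because the gene was chosen for it.

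The diabetic retinas also differed more from each other in Rnf123 than the controls did, with SDs of 0.14 and 0.06, a difference that was not tested. Diabetic 2 (8.44) and diabetic 3 were the lowest, and diabetic 5 was the closest to controls. Diabetic 1 to 4 had a mean of 8.55 and diabetic 5 and 6, the animals whose numbers stand apart, a mean of 8.70, both below the control range. The change was -0.50 with the first subset alone and -0.35 with the second. With each array left out in turn it lay between -0.49 and -0.42, and with the mean of the lens markers as a covariate it was -0.42.

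**Figure D1:**
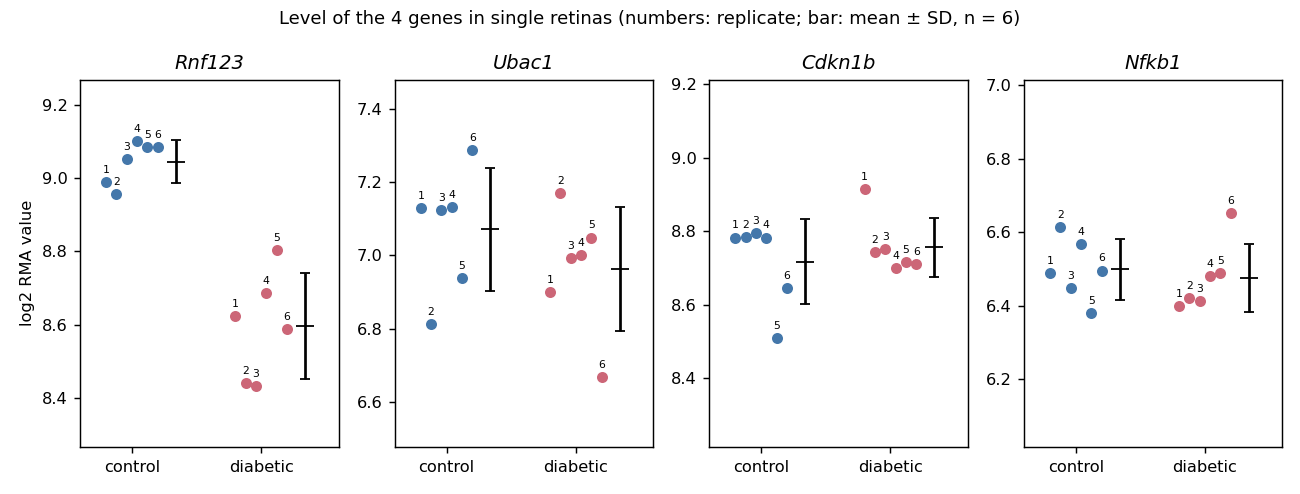
Log2 RMA value (vertical axis, each panel spanning the same height) of the 4 genes in each of 6 control and 6 diabetic retinas; points are single arrays with their replicate number, bars are mean ± SD. The Rnf123 values of diabetic retinas (8.43 to 8.80) all lie below those of controls (8.96 to 9.10), while for Ubac1, Cdkn1b and Nfkb1 the groups overlap.

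The promoters of both ligase subunits are shown, and whether the changes of their transcripts differed was not tested. Each is the stretch of 250 bases before the start of the gene, 5′ to 3′ on the minus strand, from RefSeq's GRCm38.p6, at chr9:108079302-108079551 for Rnf123 and at chr2:26021761-26022010 for Ubac1. Capitals mark the motifs found in them.
Rnf123: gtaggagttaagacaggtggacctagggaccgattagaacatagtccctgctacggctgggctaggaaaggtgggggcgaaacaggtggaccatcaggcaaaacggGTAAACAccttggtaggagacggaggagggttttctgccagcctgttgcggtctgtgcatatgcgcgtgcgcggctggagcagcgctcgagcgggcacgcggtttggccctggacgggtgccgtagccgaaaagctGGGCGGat
Ubac1: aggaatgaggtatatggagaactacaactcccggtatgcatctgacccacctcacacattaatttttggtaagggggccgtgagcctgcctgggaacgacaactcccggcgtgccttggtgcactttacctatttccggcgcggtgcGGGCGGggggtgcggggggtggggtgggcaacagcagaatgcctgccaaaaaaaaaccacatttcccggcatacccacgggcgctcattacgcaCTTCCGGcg

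Searched on both strands were the forkhead motif GTAAACA, the E-box CACGTG, the ETS motif CTTCCGG, the GC box GGGCGG, the NRF1 motif, the CCAAT box CCAAT, the cAMP element TGACGTCA, the NF-kB motif and the glucocorticoid element, the last a pair of inverted repeats. The Rnf123 window held 1 forkhead motif, from base 144 to base 138 before the start, and 1 GC box, from base 8 to base 3. The Ubac1 window held 1 ETS motif, from base 9 to base 3, and 1 GC box, from base 103 to base 98. None of these matches overlapped another. Of all 32851 promoter windows of this length in the table, 3.17% held the forkhead motif, 6.91% the ETS motif and 32.7% the GC box. The promoter of Cdkn1b held 1 GC box and 2 CCAAT boxes, the latter found in 33.8% of all windows. The E-box (6.02% of windows), the NRF1 motif in the exact letters given (0.782%), the cAMP element (1.55%), the NF-kB motif (0.14%) and the glucocorticoid element (0.00913%) had no match in the 3 windows. These are matches of letters and were not tested as binding sites. The promoter of Nfkb1 was not used here.

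Of the 3 other genes, 0 passed the limma test (adjusted p under 0.05 over all genes), where 3.24% of all genes passed (1.47% higher and 1.77% lower in diabetic retinas), and 0 had an unadjusted p under 0.05. Ubac1, the adaptor subunit gene, ran from 6.81 (control 2) over 7.13 to 7.29 (control 6) in controls, and from 6.67 (diabetic 6) over 7.00 to 7.17 (diabetic 2) in diabetic retinas, lowest, median and highest values. Diabetic 6 lay below all controls, and the other 5 diabetic retinas lay within the control range. Ubac1 differed by -0.11 ± 0.09 (SE; 95% interval -0.30 to 0.09; limma adjusted p = 0.539), an interval from 0.810-fold to 1.06-fold. It was the most variable of the 4 genes, with a pooled SD of 0.17 that exceeded those of 93.1% of the genes at or above the array median. Its difference was -0.05 without diabetic 6, -0.16 without control 2, -0.06 with diabetic 1 to 4 alone and -0.21 with diabetic 5 and 6 alone, all short of the threshold.

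Cdkn1b, which encodes p27, was at nearly one level in both groups. Controls ran from 8.51 (control 5) over a median of 8.78 to 8.79 (control 3), and diabetic retinas from 8.70 (diabetic 4) over 8.73 to 8.92 (diabetic 1). Apart from diabetic 1, which exceeded all controls, the diabetic values lay within the control range. The difference was 0.04 ± 0.05 (SE; 95% interval -0.08 to 0.16; limma adjusted p = 0.727), an interval from 0.947-fold to 1.12-fold. Control 5 set the sign of this small difference, which was -0.0021 without that array.

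Nfkb1, which encodes p105, ran from 6.38 (control 5) over 6.49 to 6.61 (control 2) in controls and from 6.40 (diabetic 1) over 6.45 to 6.65 (diabetic 6) in diabetic retinas. The groups overlapped almost completely, with diabetic 6 alone above the control range. The difference was -0.02 ± 0.05 (SE; 95% interval -0.13 to 0.08; limma adjusted p = 0.829), which spans 0.915-fold to 1.06-fold. Without diabetic 6 it was -0.06, and with diabetic 5 and 6 as the only diabetic retinas it was 0.07, neither past the threshold.

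**Figure D2:**
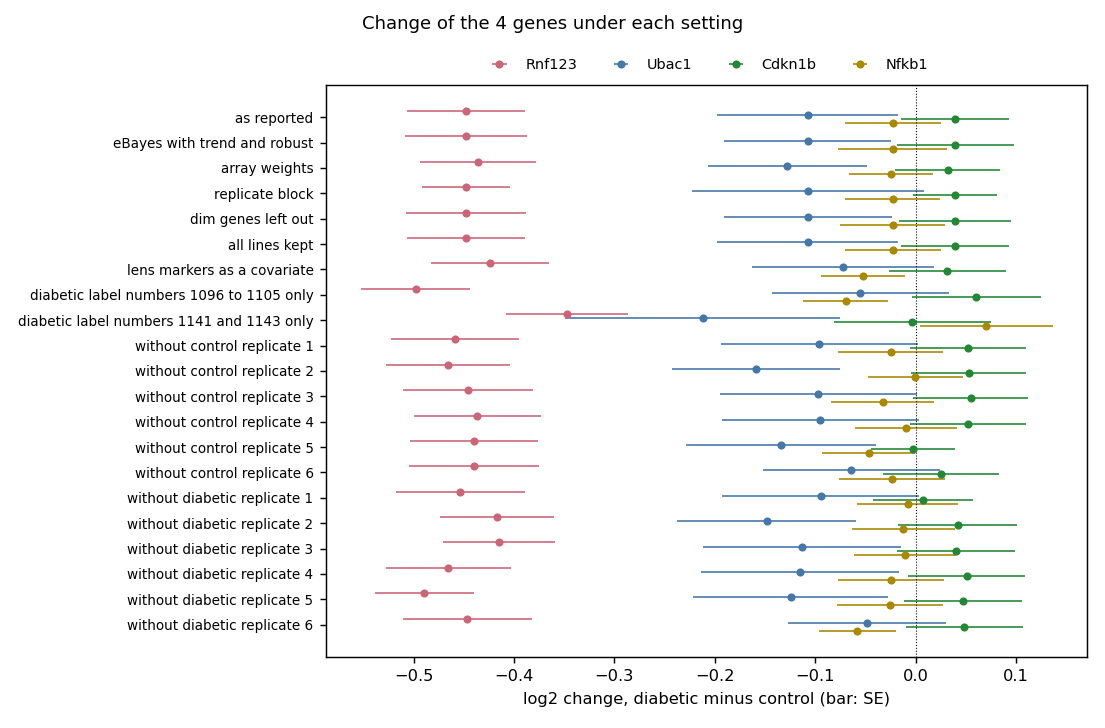
Log2 change, diabetic minus control (horizontal axis), of Rnf123, Ubac1, Cdkn1b and Nfkb1 for the fit as reported and for each alternative and each array left out (vertical axis); points are changes and bars their SE. Rnf123 lies between -0.50 and -0.35 in every line, and the 3 other genes between -0.21 and 0.07.

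Since Rnf123 was chosen on the difference between groups, the members' relation to each other was examined within the groups, over 6 arrays each. Of the 12 relations (6 pairs in each group), 0 passed an exact permutation test of Pearson's r after adjustment over the 12, and 0 had an unadjusted p under 0.05. Rnf123 and Ubac1, the subunits of one complex, had r = 0.55 in controls (rho = 0.61; two-sided exact permutation p = 0.258 for r and 0.206 for rho; adjusted p = 0.775 and 0.971) and r = -0.13 in diabetic retinas (rho = 0.14; exact permutation p = 0.843 and 0.803; adjusted p = 0.892 and 1). The value in controls was 0.02 without the 2 arrays farthest from the median of Rnf123, so it rests on those. Rnf123 and Cdkn1b had r = -0.47 in controls (rho = -0.53; exact permutation p = 0.392 and 0.289; adjusted p = 0.783 and 0.971) and -0.10 in diabetic retinas (rho = -0.43; exact permutation p = 0.826 and 0.419; adjusted p = 0.892 and 0.971). Without the 2 farthest arrays these were -0.21 and 0.07. Rnf123 and Nfkb1 had r = -0.45 in controls (rho = -0.17; exact permutation p = 0.369 and 0.75; adjusted p = 0.783 and 1) and 0.28 in diabetic retinas (rho = 0.37; exact permutation p = 0.614 and 0.497; adjusted p = 0.892 and 0.971). The control value turned to 0.50 without the 2 farthest arrays.

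The substrate genes had the pair with the smallest p of the 12 by rank, Cdkn1b and Nfkb1 in diabetic retinas (r = -0.53, rho = -0.83; exact permutation p = 0.181 and 0.0583; adjusted p = 0.722 and 0.7), with r = -0.86 without the 2 farthest arrays. In controls the same pair had r = 0.68 (rho = 0.32; exact permutation p = 0.161 and 0.55; adjusted p = 0.722 and 0.971), and -0.63 without the 2 farthest arrays. Ubac1 and Nfkb1 in diabetic retinas had r = -0.74 but rho = -0.03 (exact permutation p = 0.132 and 1; adjusted p = 0.722 and 1), and r = 0.81 without the 2 farthest arrays. This value rests on diabetic 6, the lowest array for Ubac1 and the highest for Nfkb1, since r was 0.21 without it. With 6 arrays per group, relations of moderate size cannot be seen.

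The genes whose values most resembled those of Rnf123 over the 12 arrays, among 12281 genes at or above the array median, were Vamp4 (r = 0.94, rho = 0.84), Hes5 (0.94 and 0.89), Mrgpra2a (0.92 and 0.92), Ankrd40 (0.91 and 0.92) and Sec11c (0.91 and 0.84). Vamp4 is a SNARE protein of the trans-Golgi network, Hes5 a Notch-induced repressor, Mrgpra2a a receptor of a family with near-identical copies, and Sec11c a subunit of the signal peptidase. Much of this likeness is the difference between the groups, which all of these genes share: their changes were -0.30 ± 0.04, -0.17 ± 0.03, -0.22 ± 0.05, -0.17 ± 0.02 and -0.32 ± 0.04 (SE). With values centred within each group, r with Rnf123 was 0.60, 0.73, 0.78, 0.49 and 0.42. Opposite to Rnf123 ran Pigz (r = -0.93, rho = -0.89), an enzyme of glycosylphosphatidylinositol anchors, Fkbp5 (-0.92 and -0.91), a co-chaperone induced by glucocorticoids, and Mrps6 (-0.91 and -0.81), a protein of the mitochondrial ribosome. Their changes were 0.25 ± 0.05, 0.46 ± 0.08 and 0.34 ± 0.06. Of the genes named here, Hes5 (control mean 6.01), Mrgpra2a (6.12) and Pigz (6.06) lay close to the array median of 5.73, where differences are likely compressed.

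Within the groups, the genes most like Rnf123 were Slitrk4 (centred r = 0.90), a neuronal adhesion protein, Pcdhga12 (0.89), a clustered protocadherin that shares its last exons with its family, and Mpc2 (0.87), a subunit of the mitochondrial pyruvate carrier. Slitrk4 lay close to the array median of 5.73 (5.77 ± 0.03 in controls and 5.74 ± 0.04 in diabetic retinas, SD), so its r rests on small differences. In diabetic 5, where Rnf123 was highest among diabetic retinas, Pcdhga12 (7.68) and Mpc2 (7.28) were also at their highest in that group. The other members were far from this order, with centred r of 0.06 for Ubac1, -0.20 for Cdkn1b and 0.08 for Nfkb1. These correlations over 12 arrays describe the order and carry no test.

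**Figure D3:**
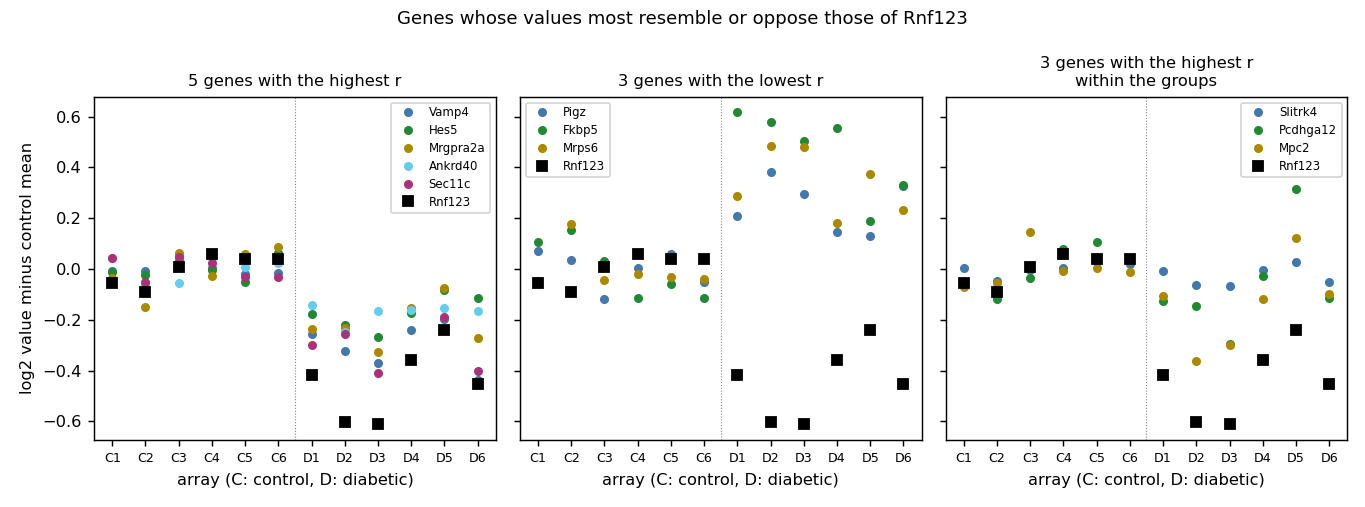
Log2 value minus the mean of controls (vertical axis) in each of the 6 control (C1 to C6) and 6 diabetic (D1 to D6) arrays for Rnf123 (black squares) and for the genes with the highest r, the lowest r and the highest r within the groups (coloured points). Vamp4, Hes5, Mrgpra2a, Ankrd40 and Sec11c lie lower in diabetic arrays together with Rnf123, Pigz, Fkbp5 and Mrps6 lie higher, and Slitrk4, Pcdhga12 and Mpc2 overlap between the groups.

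At the Rnf123 locus, the measured genes next to it in the RefSeq order are Gmppb and Ip6k1 on one side and Amigo3 and Mst1 on the other, with Gmppb and Amigo3 overlapping the span of Rnf123. Gmppb, an enzyme that makes GDP-mannose, differed by -0.03 ± 0.03 (limma adjusted p = 0.595), and Amigo3, an adhesion protein, by -0.07 ± 0.03 (limma adjusted p = 0.222). Ip6k1, an inositol phosphate kinase, had values above 0 (0.17 ± 0.05; limma adjusted p = 0.101), with 4 of 6 diabetic retinas above all controls. Mst1, a secreted relative of hepatocyte growth factor, differed by 0.02 ± 0.02 (limma adjusted p = 0.563). Gmppb (control mean 5.53) and Mst1 (5.45) lay below the array median of 5.73 and Amigo3 (5.79) close to it, so that differences of these 3 genes could be hidden. Which strand the probes read was not given in the sources used here.

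Around the 4 genes, 9 lists of related genes were counted, holding 184 measured genes without Rnf123, Ubac1, Cdkn1b and Nfkb1. Of the 184, 4 passed the limma test (2.17%, against 3.24% of all genes), 2 higher and 2 lower, and 40 had an unadjusted p under 0.05 (21.7%, against 21.0%). These shares lie close to those of all genes. The 4 were Skp1, Mcm2, Nfkbiz and Rnf170. Their calls were lost in 8, 10, 8 and 11 of the 12 runs without 1 array, while their changes kept their sign. Over all genes, 325 to 835 passed in these runs, against 797 with all arrays. The number of list members past the test was 0 without diabetic 3, diabetic 4 or diabetic 6. A single member passed without control 2 (Ccl5), control 3 (E2f1) or diabetic 1 (Skp1). Without control 1 it was 2 (Nfkbiz and Rnf208), as without control 4 (Rnf208 and Skp1). With the lens markers as a covariate it was 1, where Rnf121 passed and Skp1, Mcm2, Nfkbiz and Rnf170 did not.

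Of the 7 measured partners and other reported targets of KPC1, 0 passed the limma test and 3 had an unadjusted p under 0.05 (median change 0.01, against -0.0018 for all genes). Usp19, a deubiquitinating enzyme that stabilizes KPC1, ran from 8.68 over 8.72 to 8.86 in controls and from 8.63 over 8.70 to 8.97 in diabetic retinas, and the groups overlapped (0.01 ± 0.05; limma adjusted p = 0.947). The conjugating enzyme genes Ube2d3 (-0.24 ± 0.07; limma adjusted p = 0.0798) and Ube2d2a (-0.21 ± 0.06; limma adjusted p = 0.0801) had the largest values below 0. Ube2d3 did not pass in the fit reported, and passed with the trended robust fit, with array weights, with dim genes left out, with the replicate block, without control 5 and at a threshold of 0.1. Ube2d1, of the same family of enzymes that KPC1 works with, differed by 0.03 ± 0.08 (limma adjusted p = 0.887). Of the targets reported beside p27 and p105, the heterochromatin protein gene Cbx5 differed by -0.12 ± 0.04 (limma adjusted p = 0.123). The sensors of viral RNA Ifih1 (0.08 ± 0.06; limma adjusted p = 0.509) and Ddx58 (0.02 ± 0.06; limma adjusted p = 0.891) did not pass either. Cbx3 was not analysed here.

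Of the 10 genes of other routes of p27 turnover, Skp1 was the one past the test. Skp1, the linker of the SCF ubiquitin ligase that removes p27 from the nucleus, ran from 10.08 (control 5) over 10.27 to 10.34 in controls and from 9.90 (diabetic 2) over 10.05 to 10.12 in diabetic retinas. In 5 of 6 diabetic retinas it lay below all controls, with control 5 overlapping the diabetic range. It fell by 0.22 ± 0.05 (limma adjusted p = 0.0304). The F-box protein of the same ligase that recognizes p27, Skp2, differed by 0.11 ± 0.03 in the other direction (limma adjusted p = 0.106), with 5 of 6 diabetic retinas (6.99 to 7.08) above the highest control (6.98). Its cofactor Cks1b differed by -0.13 ± 0.11 (limma adjusted p = 0.552), and the scaffold Cul1 by 0.08 ± 0.04 (limma adjusted p = 0.281). The median change of the 10 genes was 0.03.

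Genes that set the transcription or place of p27 held 0 of 9 past the limma test (1 at an unadjusted p under 0.05; median change -0.0026). The forkhead factors Foxo1, Foxo3 and Foxo4, which induce p27, differed by 0.01 ± 0.05, -0.07 ± 0.08 and -0.0059 ± 0.03 (limma adjusted p = 0.949, 0.657 and 0.935).

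Among 17 cyclins, kinases and inhibitors of the G1 phase, the partners of p27, 0 passed the limma test and 4 had an unadjusted p under 0.05 (median change 0.01). Cdkn1a, the p21 relative of p27, ran from 5.69 over 5.75 to 5.79 in controls and from 5.65 over 5.76 to 5.86 in diabetic retinas (0.01 ± 0.03; limma adjusted p = 0.886), close to the array median of 5.73. E2f1, a transcription factor released from the retinoblastoma protein, had the smallest p of the list (-0.11 ± 0.03; limma adjusted p = 0.064). Of 10 proliferation markers, Mcm2, a subunit of the replicative helicase, fell by 0.10 ± 0.02 (limma adjusted p = 0.0462). Mcm2 kept this call in 3 of 9 alternatives and lost it with the trended robust fit and with array weights, among others. Its values ran from 6.07 over 6.12 to 6.15 in controls and from 5.97 over 5.99 to 6.10 in diabetic retinas, where 5 of 6 lay below all controls. The other 9 did not pass. Of the 10 markers, 8, Mki67 and Top2a among them, had a mean below the array median in these retinas. Pcna, a clamp of DNA replication and repair, lay well above it (0.11 ± 0.06; limma adjusted p = 0.303).

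Of 19 NF-kB subunits, inhibitors and kinases beside Nfkb1, Nfkbiz passed the test. Nfkbiz encodes a nuclear IkB protein that binds p50, the product of Nfkb1. It ran from 5.90 over 5.96 to 6.00 in controls and from 6.03 over 6.05 to 6.14 in diabetic retinas, without overlap. The rise was 0.11 ± 0.02 (limma adjusted p = 0.0362). Nfkbiz kept this call in 4 of 9 alternatives and lost it with the trended robust fit, among others. Its level was close to the array median, where the fold is likely compressed. Rela, the p65 partner of p50, ran from 7.16 over 7.39 to 7.54 in controls and from 7.33 over 7.51 to 7.59 in diabetic retinas (0.11 ± 0.07; limma adjusted p = 0.383). Nfkbia, the classical inhibitor and itself an NF-kB target, differed by -0.02 ± 0.07 (limma adjusted p = 0.902), and Rel by -0.16 ± 0.05 (limma adjusted p = 0.101). Tnip2, which binds p105, had the largest value of the list, 0.29 ± 0.10 (limma adjusted p = 0.144).

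Of 20 NF-kB target genes, 0 passed the limma test and 5 had an unadjusted p under 0.05, as had 21% of all genes. The list had 10 values above 0 and 10 below (median change 0.0002). The 5 were Ccl2 (-0.07), Cxcl10 (-0.05), Nos2 (-0.06), Csf1 (-0.10) and Irf1 (-0.05), all lower in diabetic retinas. Their control means ran from 5.44 (Cxcl10) to 5.92 (Csf1), near the array median. Of the 20 genes, 13 had a mean below the array median, among them Tnf, Il6 and Il1b, for which a change could go unseen. Tnfaip3 (control mean 10.96; 0.04 ± 0.04; limma adjusted p = 0.676) and Sod2 (10.61; 0.0029 ± 0.03; limma adjusted p = 0.972), an inhibitor of NF-kB signalling and a mitochondrial superoxide dismutase, were well above the median.

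Among 13 ubiquitin-binding shuttle and receptor proteins, which share domains or the proteasome with KPC2, 0 passed the limma test and 2 had an unadjusted p under 0.05 (median change -0.02). The largest value below 0 was that of Ubqln2, a shuttle protein (-0.20 ± 0.06; limma adjusted p = 0.0872). Of the 79 other genes with an Rnf number, which share the RING finger name and no common function, 1 passed the test, against 3.24% of all genes, and 15 had an unadjusted p under 0.05 (median change -0.0039). This was Rnf170, a ligase of the endoplasmic reticulum, which ran from 8.65 (control 2) over 8.99 to 9.14 in controls and from 9.15 over 9.31 to 9.50 (diabetic 6) in diabetic retinas. It rose by 0.38 ± 0.09 (limma adjusted p = 0.0498). The call was kept in 4 of 9 alternatives and lost with array weights and the lens covariate, among others. The lowest value of these 79 genes was that of Rnf185 (-0.16).

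**Figure D4:**
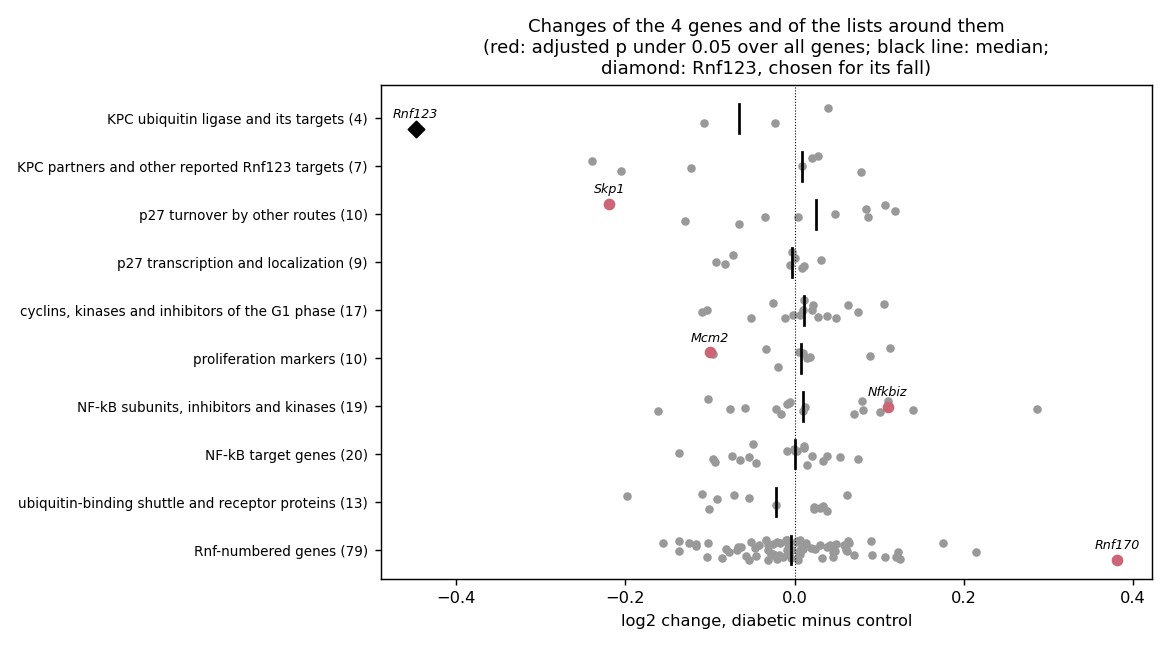
Log2 change, diabetic minus control (horizontal axis), of each measured gene of the 4-gene set and of 9 lists around it (vertical axis, number of genes in brackets); red points passed the limma test over all genes, the diamond is Rnf123, and black lines are list medians. Rnf123 lies at -0.45, the median of the 4-gene set at -0.07 and the medians of the 9 lists between -0.02 and 0.03. The called genes Skp1 and Mcm2 lie below 0 and Nfkbiz and Rnf170 above.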

How the data were processed

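Values were the deposited log2 values per Entrez gene number, made by the authors with RMA per the submitters' processing notes. Array name, RMA version and probe sets are not given in the sources used here. Quantile normalization hides a shift of most genes in 1 direction. Of 24973 lines, 24015 were named by the platform annotation and 559, Nfkb1 among them, by RefSeq's GRCm38.p6 table, 399 were left out, and 24570 genes were kept (highest mean for repeated symbols).

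Changes (diabetic minus control) were fitted with limma 3.58.1 (R 4.3.3; lmFit, eBayes, Benjamini-Hochberg over 24570 genes, threshold 0.05, two-sided, no filter). Relations used exact permutation over 720 pairings. The members, lists and tests were chosen with earlier results of these data known. Named were the members, Usp19, Skp2, Cks1b, Cdkn1a, Rela and Nfkbia, list members past the test (at most 6 a list), neighbours of Rnf123 and genes of most similar values; other genes were chosen after their values were seen. On simulated data of 24570 genes, 74.0% of 50 genes changed 1.2-fold and 94.0% of 50 changed 1.3-fold were recovered. Of 195 genes called there, 14 were false. The changed genes were drawn at random from all genes, with independent normal noise. These shares therefore need not hold for genes at or above the array median, nor for a gene as variable as Ubac1. Pooled SDs of Ubac1, Cdkn1b and Nfkb1 were 0.168, 0.1 and 0.0883, against a median of 0.0956 over the genes at or above the array median. The number of arrays limits the precision. Alternatives were the replicate block, a trended robust fit, array weights, dim genes (mean below the array median) left out, all lines kept, the lens list mean as a covariate, each block of diabetic animal numbers alone, a threshold of 0.1 and each array left out.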

Additional observations from a re-analysis of the deposited data

Results flagged for a closer look

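Among the 58 groups of 6 arrays formed by the named genes, 6 (10.3%) held a single array whose distance to its nearest neighbour exceeded Dixon's 95% limit as a share of the whole range, where chance gives about 1 in 20. Of the members, Cdkn1b had diabetic 1 (8.92) above the other diabetic retinas (ratio 0.757) and Nfkb1 had diabetic 6 (6.65) above the others (ratio 0.65). Among genes similar or opposite to Rnf123, control 3 was high for Vamp4 (0.658) and for Mpc2 (0.659), control 2 was high for Mrps6 (0.874), and diabetic 2 was low for Ankrd40 (0.764). Neither Rnf123 nor Ubac1 had such an array.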

How the results depend on the processing

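The change of Rnf123 stayed below 0 in 8 alternatives and in 12 runs without 1 array, as did that of Ubac1. With diabetic 5 and 6 as the only diabetic animals, Rnf123 was at -0.35 and no gene passed the limma test (3423 at an unadjusted p under 0.05), while Cdkn1b turned to -0.0033, Nfkb1 to 0.0706, Cdkn1a to -0.0238, Rela to -0.0151, Pcdhga12 to 0.10 and Mpc2 to 0.0132. Without 1 array, Cdkn1b ran from -0.0021 to 0.0549, Usp19 from -0.0363 to 0.0334 (-0.0083 with the lens covariate), Cdkn1a from -0.0086 to 0.0336 and Nfkbia from -0.0803 to 0.0172. All of these were short of the threshold. The 797 genes past the test became 506 with the replicate block, 452 with the lens covariate, 291 with diabetic 1 to 4 alone, 0 with diabetic 5 and 6 alone and 1967 at a threshold of 0.1. Without 1 array they ran from 325 to 835: 464 without control 1, 393 without control 2, 395 without control 3, 428 without control 6, 428 without diabetic 1, 339 without diabetic 3, 325 without diabetic 4 and 454 without diabetic 6. Of the list members, 4 passed; this was 1 with the lens covariate, 1 with diabetic 1 to 4, 0 with diabetic 5 and 6 (34 at an unadjusted p under 0.05), 18 at 0.1, and 0 to 5 without 1 array. Animals of the same replicate number showed little shared deviation (r from -0.159 to 0.17, 1 of 6 pairs over 0.1). Of the diabetic animals, 1 correlated best with the control of its own replicate number. With 6 pairs this check cannot exclude a pairing. The replicate block left Ubac1, Cdkn1b and Nfkb1 short of the threshold, and gave -0.45 ± 0.04 for Rnf123. It ended the calls of Mcm2, Hes5, Mrgpra2a and Pigz, and added that of Ube2d3. For the counts, the cause was not tested beyond the smaller number of arrays. The 12 relations within the groups gave 0 calls by rho and without any single array. The values are log2 already, so no pseudocount was compared, and identical distributions leave no scaling between arrays to compare.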
